A study of Mus musculus with 2 samples.

Results

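B cells of the mesentery were taken here as the droplet barcodes whose UMIs (unique molecular identifiers, each counted as 1 RNA molecule) of Cd79a, Cd79b, Ms4a1 and Ly6d summed to at least 3. A barcode also had to hold at least 200 detected genes, at most 10% of UMIs on mt- genes, no UMI of Cd3e, Cd3d or Cd3g, under 8 UMIs of C1qa, C1qb and C1qc together, at most 2 of Dcn and at most 1 of Cdh5 and Cldn5 together. The rule found 216 B cells among 3143 barcodes past the first 2 filters, of 3204 in all. They were compared with the other 2927 barcodes and with 348 Cd3-positive cells, which held at least 1 UMI of a Cd3 gene and passed no other gate.

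The study measured single-cell RNA from the whole mesentery of 2 untreated wild-type male C57BL/6N mice, dissociated with Liberase DH and captured with 10x Chromium 3' v2 chemistry. Each mouse gave 1 library, and both form 1 group, so no condition was compared and mouse 1 and mouse 2 are its replicates. The mesentery is the sheet of connective and fatty tissue that carries vessels, nerves and lymph nodes to the intestine.

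B cells are lymphocytes that recognise antigen through membrane immunoglobulin, whose signal is passed on by the CD79A and CD79B chains. They present antigen on MHC class II and can become antibody-secreting plasma cells. In mice, follicular B cells recirculate through lymphoid organs, whereas B-1 cells are a self-renewing population known from the body cavities and the fat-associated clusters of serous membranes, the mesentery among them.

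B cells made up 8.15% of barcodes in mouse 1 (121 of 1484, exact Clopper-Pearson 95% interval 6.81 to 9.66) and 5.73% in mouse 2 (95 of 1659, 4.66 to 6.96), with a mean of 6.94% ± 1.72 (SD, n = 2). Dissociation and capture act on such shares, and the intervals cover counting error only. Raising the marker minimum to 5 UMIs gave 7.55% and 4.70%, and dropping Ly6d from the sum gave 8.02% and 5.18%. The share of mouse 1 was above that of mouse 2 under each of the 8 rules tried.

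**Figure D1:**
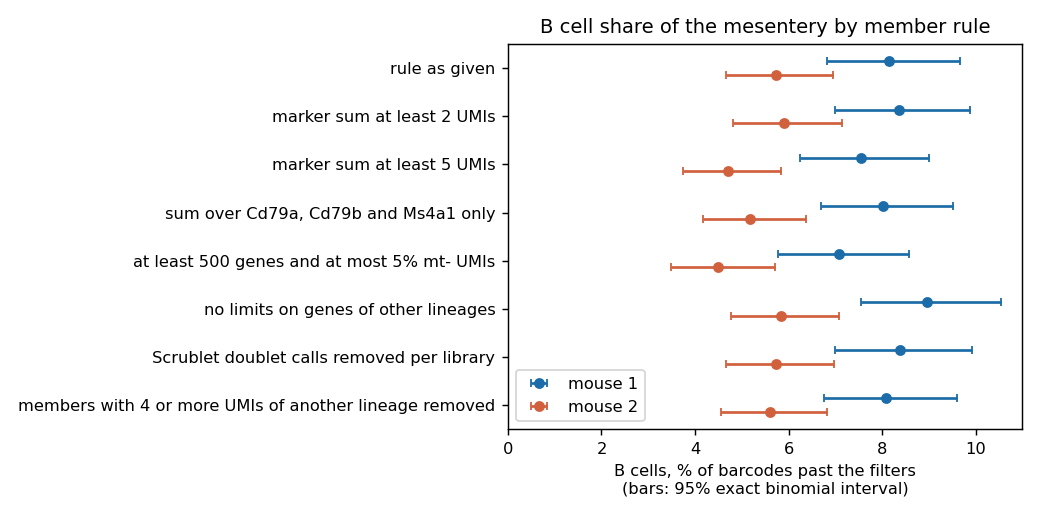
B cell share of barcodes past the filters (percent, horizontal axis) for each mouse under the rule as given and 7 other rules (vertical axis), with 95% exact binomial intervals. The share of mouse 1 lies between 7.08% and 8.96%, and that of mouse 2 between 4.49% and 5.91%.

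A B cell had a median of 1894 UMIs in mouse 1 and 1885 in mouse 2, close to the 1776 and 1626 of Cd3-positive cells and below the 3225 and 2757.5 of the other barcodes. The B cells' summed UMIs came to 293128 and 245946, so that a gene with no UMI could still be present at up to 10.2 and 12.2 UMIs per 1000000 (CPM, the level unit used throughout). No barcode sequence occurred in both libraries. Scrublet, a doublet caller, marked 39 barcodes in mouse 1 and 4 in mouse 2, none of them a B cell.

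The genes of the rule are given as a description only. Cd79a, which encodes the signalling chain CD79A (chr7:24897381-24902197, GRCm38), had a UMI in 206 of the 216 B cells, with a median of 4 and a maximum of 16. Ly6d, a surface protein marking B cell commitment (chr15:74762056-74763620), had a UMI in 172. Cd79b, the partner of CD79A (chr11:106311341-106314762), had a UMI in 157, and Ms4a1, which encodes CD20 (chr19:11249675-11266241), in 145. The marker sum ran from 3 to 50 with a median of 9, and 11 cells passed on Cd79a alone. Just inside the threshold, 11 of the 12 barcodes with a sum of 3 held a UMI of other B lineage markers (median 4 UMIs). Just outside it, 4 of the 6 with a sum of 2 did so (median 1 UMI). Another 14 barcodes reached a sum of 3 but were kept out by the limits on genes of other lineages, 12 of them in mouse 1.

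B lineage markers that the rule did not use were called higher in B cells than in Cd3-positive cells for 15 of 15 genes tested, with a median log2 difference of 8.81 against -0.01 over all 8105 genes. Here and below, called means an adjusted p under 0.05 in edgeR's quasi-likelihood test (Benjamini-Hochberg) on UMIs summed per population and mouse. By that measure 542 genes, 6.69%, were called higher in B cells and 665, 8.2%, lower, 14.9% in all. The cells had been chosen by 4 B lineage genes, so the direction of genes that travel with them follows from the choice, and the sizes are what the test adds. The 2 mice gave 2 replicates per population, and all 6 gated populations entered 1 fit.

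Pax5, the factor that holds B cell identity, stood at 139.9 CPM in mouse 1 and 142 in mouse 2 in B cells, and at 0 and 3.03 in Cd3-positive cells. Ebf1, a B lineage factor that stromal and fat precursor cells also use, reached 1201 and 1151 CPM against 3.01 and 3.03. The log2 difference of Ebf1 was 8.81 ± 0.41 (SE, n = 2 mice, edgeR adjusted p = 3.05e-25). The scaffold gene Bank1 stood at 351 and 211 CPM and the IgM receptor gene Fcmr at 355 and 224, both with no UMI in Cd3-positive cells, and the DESeq2 Wald test did not call Fcmr (adjusted p = 0.229). Cd37, a tetraspanin gene whose symbol occurs on more than 1 row of the gene table, was read by its identifier ENSMUSG00000030798 and is left out of that list's count.

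After each cell was thinned to 1000 UMIs, which left out 4 and 2 shallower B cells, Ebf1 had a UMI in 67.5% and 69.9% of B cells. In Cd3-positive cells at the same depth, the shares were 0.599% and 0.602%. Unthinned, Ebf1 had a UMI in 91.7% and 93.7% of B cells.

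**Figure D2:**
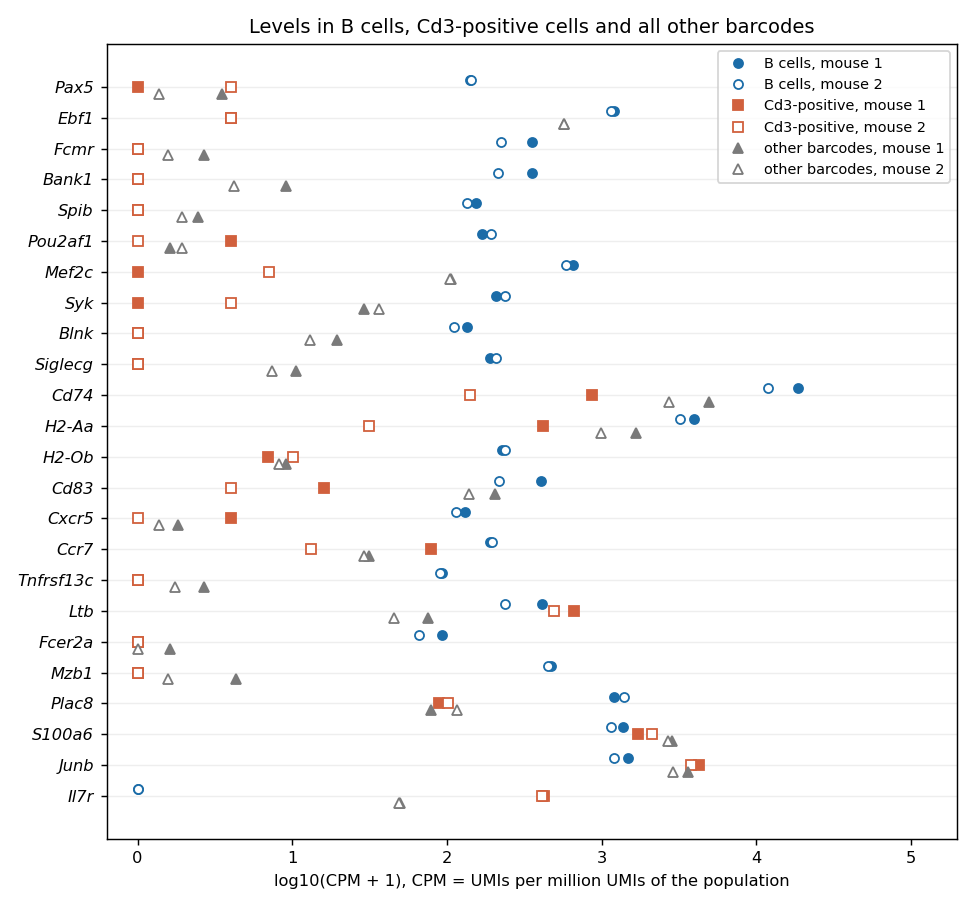
Levels of 24 genes (vertical axis) as log10(CPM + 1) in B cells, Cd3-positive cells and all other barcodes, filled symbols for mouse 1 and open symbols for mouse 2. For Pax5, Ebf1, Mzb1 and Plac8 the B cells of both mice lie to the right of both comparison groups, and for Il7r they lie at 0.

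Markers of other cell types, counted without the genes that the rule limits, were mostly low in B cells. Of 8 T cell markers, 5 had no UMI in the B cells of each mouse, among them Cd8a and Lat. Lck, a kinase of T cell receptor signalling, stood at 30.7 and 28.5 CPM, against 340 and 288 in Cd3-positive cells. Pericyte markers summed to 0 CPM in both mice, and mesothelial markers to 10.2 and 4.07 against 788 and 1407 in the other barcodes. Macrophage markers summed to 23.9 and 155 CPM against 2370.0 and 2126, with Csf1r at 0. Of the 155 CPM in mouse 2, 1 B cell accounted for most, with 27 UMIs of Lyz2. Plasmacytoid dendritic cell markers summed to 324 and 333 CPM against 584 and 571, and Siglech and Ccr9 were at 0 among them, while that list also holds Tcf4, Irf8 and Bst2, which B cells are known to express. A second cell of mouse 2 held 17 UMIs of ILC2 genes, among them 7 of Rora and 5 of Gata3, and a cell of mouse 1 held 4 of Nkg7. Without these 3 cells, found with the limited genes counted and Lck, Gsn, Pecam1, Tcf4, Irf8 and Bst2 left out, 1227 genes were called against Cd3-positive cells, beside 1207 with them.

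Signalling genes behind the receptor were mostly higher in B cells than in Cd3-positive cells, with 14 of 20 tested called higher and none lower. Syk, the kinase that CD79A recruits, stood at 208 and 236 CPM in B cells and at 0 and 3.03 in Cd3-positive cells. Blnk, the adaptor downstream of SYK, had 133 and 109.8 CPM, and Btk, the kinase it brings to the membrane, 64.8 and 56.9, both with no UMI in Cd3-positive cells. Lyn, a Src family kinase, stood at 225 and 167 against 24.1 and 24.3 (log2 3.30 ± 0.34, edgeR adjusted p = 9.62e-12). For each of these 4 kinase and adaptor genes both mice stood higher in B cells than in Cd3-positive cells. The share of all genes that do so is not given here. The B cell kinase Blk was the weakest call of the B lineage markers, at 102 and 97.6 CPM in B cells and 36.1 and 78.9 in Cd3-positive cells (log2 1.12 ± 0.40, adjusted p = 0.0479). That call was lost under 8 alternatives, with an adjusted p of up to 0.365. Among the 6 genes without a call were Bcl10 and Malt1, which serve the antigen receptors of both B and T cells.

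Inhibitory receptors showed a like split, with 9 of 12 tested genes called higher in B cells and 1 lower. Siglecg, which encodes a sialic acid binding receptor that restrains receptor signalling, had 188 and 207 CPM and no UMI in Cd3-positive cells. The related Cd22 had 95.5 and 52.9 CPM, and the Fc receptor gene Fcgr2b 71.6 and 28.5, again with no UMI in Cd3-positive cells. The gene called lower was Cd5, a marker of T cells and B-1a cells, which had no UMI in 216 B cells and 87.3 and 75.8 CPM in Cd3-positive cells. Against 3 counts over the B cells, that is at least 14.7-fold lower.

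Transcription factors of the B lineage were called higher for 15 of 25 tested genes and lower for 1. Pou2af1, the coactivator OBF1 that binds OCT factors at octamer sites, stood at 167 and 191 CPM in B cells and at 3.01 and 0 in Cd3-positive cells. Pou2f2, which encodes the octamer factor OCT2, had 143 and 175 CPM against 9.03 and 6.07. Mef2c, a factor used in the response to receptor signals, had 648 and 585 against 0 and 6.07 (log2 7.88 ± 0.38, edgeR adjusted p = 1.28e-24). Foxp1 was present in both groups, at 454 and 386 CPM against 166 and 118. Ikzf3, which encodes Aiolos and serves B and T cells, was the gene called lower, at 44.3 and 48.8 CPM against 123 and 139.5 (log2 -1.22 ± 0.36). Its call was lost under the DESeq2 Wald test and under the stricter cell filter (500 genes, 5% mt- UMIs), with an adjusted p of up to 0.118.

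Because octamer and EBF factors were among the genes high in B cells, the RefSeq promoters of the listed genes (GRCm38.p6, 250 bases before to 50 after the start) were searched for the octamer ATGCAAAT and the EBF palindrome (TCCC, any 2 bases, GGGA) on both strands. Of 374 listed genes, 279 had a promoter in the table. The octamer occurred in 7 and the palindrome in 4 of the 205 listed genes that had a promoter and a UMI in B cells (3.41% and 1.95%). Of all 32851 promoters, 1.74% and 0.904% held them. A listed gene counted if any of its promoters matched, whereas the second shares are per promoter, so they are not like for like. The lists also hold markers of other cell types. The 4 such genes with the highest CPM in B cells are shown with 30 bases around the match, which stands in capitals.
Prkcb (chr7:122289044-122289073, plus strand): gcctgggtttcATGCAAATgagggaggcgg
Il2rg (chrX:101268335-101268364, minus strand): aacccaaatcTCCCTGGGGActtagcttat
Blnk (chr19:40994333-40994362, minus strand): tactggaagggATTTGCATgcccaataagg
Cd22 (chr7:30879058-30879087, minus strand): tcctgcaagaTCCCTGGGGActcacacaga
The matches begin 70, 99, 130 and 49 bases before the annotated start, and the stretches shown for Prkcb and Blnk overlap an exon annotated by GENCODE. Prkcb, Blnk and Cd22 were called higher in B cells than in Cd3-positive cells, and Il2rg, the common gamma chain of cytokine receptors, was not called and stood at 147 and 106 CPM in B cells and at 253 and 231 in Cd3-positive cells (adjusted p = 0.0594). A match is a description of the sequence and not a site of binding.

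MHC class II genes were called higher for 11 of 11 tested, with a median log2 difference of 4.18. Cd74, the invariant chain that guides class II molecules, stood at 18719 and 11848 CPM in B cells and had a UMI in every B cell. In Cd3-positive cells it stood at 861 and 139.5 CPM, with a UMI in 9.83% and 6.86% of cells. H2-Aa, the alpha chain of I-A, had 3957 and 3200 CPM in B cells and 416 and 30.3 in Cd3-positive cells. The summed Cd3-positive level of mouse 1 was far above that of mouse 2. It rested on few cells, since an H2-Aa UMI was found in 4 of 173 Cd3-positive cells in mouse 1 and 5 of 175 in mouse 2. The log2 CPM difference was 3.25 in mouse 1 alone and 6.64 in mouse 2 alone, and the edgeR fit to both, which is scaled otherwise, gave 4.38 ± 0.39. H2-Ob and H2-Oa, which encode the H2-O inhibitor of peptide exchange that B cells are known for, stood at 225 and 236 and at 116 and 130.1 CPM. In Cd3-positive cells H2-Ob had 6.02 and 9.10 CPM and H2-Oa 9.03 and 0, and the DESeq2 Wald test did not call H2-Oa (adjusted p = 0.271).

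Costimulatory genes were called higher for 5 of 10 and lower for none. Cd83, which stabilises class II and CD86 at the surface, stood at 406 and 215 CPM against 15.1 and 3.03. Cd86, a ligand of CD28, had 71.6 and 48.8 CPM and no UMI in Cd3-positive cells. Cd38, an ectoenzyme, had 126 and 85.4 against 21.1 and 21.2. Cd40 and Cd80 were the other 2, each at 23.9 CPM or below, and the call of Cd80 was lost under 3 alternatives (adjusted p up to 0.0950).

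**Figure D3:**
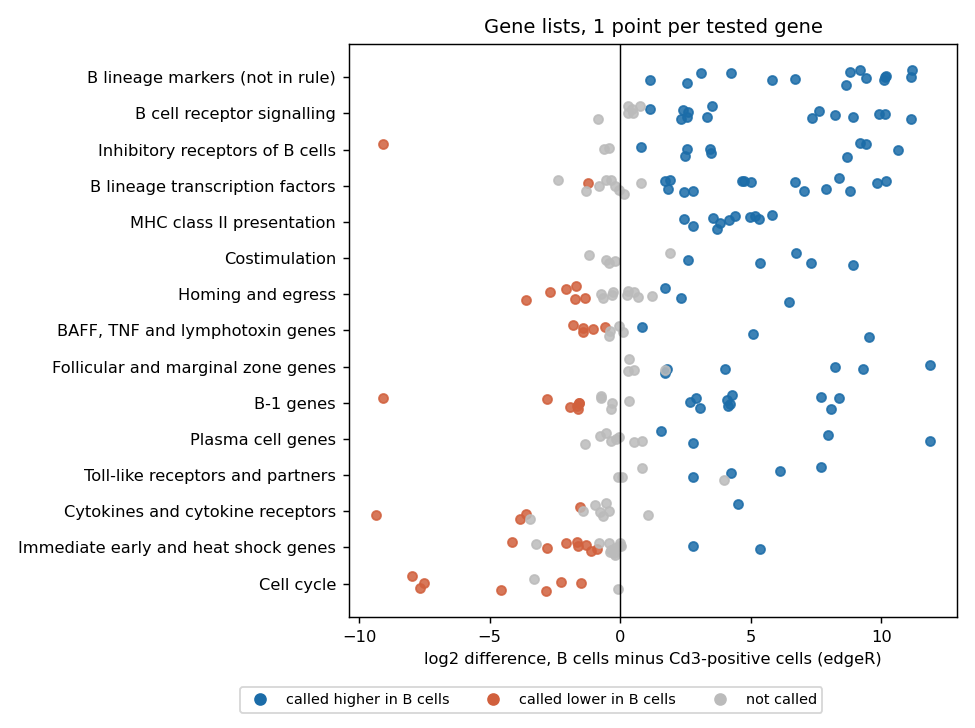
Log2 differences between B cells and Cd3-positive cells (horizontal axis, edgeR) for the tested genes of 15 lists (vertical axis), 1 point per gene and coloured by call. All 15 B lineage markers and all 11 MHC class II genes lie to the right of 0, while the homing and BAFF lists hold calls on both sides.

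Homing genes went both ways, with 3 of 18 called higher in B cells and 6 lower. Cxcr5, the receptor for the follicle chemokine CXCL13, stood at 130 and 114 CPM in B cells against 3.01 and 0. Ccr7, the receptor that leads to the T zone, had 188 and 195 against 78.3 and 12.1. Both mice had higher levels in B cells than in Cd3-positive cells for these genes, but Ccr7 differed by 1.24 on the log2 scale in mouse 1 alone and 3.83 in mouse 2 alone. The genes called lower were the integrins Itgal, Itgb2 and Itgb7, the selectin ligand gene Selplg, the hyaluronan receptor gene Cd44 and the chemokine receptor gene Cxcr3, the last not called by the DESeq2 Wald test (adjusted p = 0.0779). Selplg, for example, stood at 68.2 and 77.3 CPM in B cells and at 617 and 510 in Cd3-positive cells.

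Receptors for the survival factor BAFF were called higher in B cells. Tnfrsf13c, the BAFF receptor that mature B cells depend on, stood at 92.1 and 89.5 CPM, with no UMI in Cd3-positive cells. Tnfrsf13b, which encodes TACI, had 81.9 and 93.5 against 0 and 6.07, and Tnfrsf17, the receptor BCMA of plasma cells, had no UMI in either population. In all, 3 of 12 tested genes of the BAFF, TNF and lymphotoxin list were called higher and 5 lower. Ltb, which encodes lymphotoxin beta, was at 413 and 236 CPM in B cells and at 662 and 488 in Cd3-positive cells (log2 -0.58 ± 0.17, adjusted p = 0.0097), a call lost under 3 alternatives (adjusted p up to 0.200). Against all other barcodes, Ltb was called higher in B cells (75 and 44.6 CPM there, log2 2.65 ± 0.18). The survival gene Bcl2 stood at 61.4 and 118 CPM against 220 and 218 (adjusted p = 0.0716 by the DESeq2 Wald test), and Bcl2a1b, a gene with near-identical copies, at 147 and 69.1 against 500 and 400.4.

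Genes of follicular and marginal zone B cells were called higher than in Cd3-positive cells for 6 of 10. Fcer2a, which encodes the low-affinity IgE receptor CD23 of follicular cells, had 92.1 and 65.1 CPM, and Cr2, the complement receptor CD21, 34.1 and 40.7, both with no UMI in Cd3-positive cells. Mzb1, a chaperone for immunoglobulin assembly known from marginal zone, B-1 and plasma cells, stood at 471 and 447 CPM and was at least 101-fold higher than in Cd3-positive cells, which held no UMI of it. The DESeq2 Wald test did not call Mzb1, Fcer2a or Cr2 (adjusted p = 0.309, 0.0663 and 0.215). Leading the comparison after Mzb1 were Lmo2, Spi1, Cd86 and Ebf1, and on the lower side Lat, Il7r, Ly6c2, Gzma and Ramp1, none of which had a UMI in B cells.

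Genes reported for B-1 cells were called higher for 10 of 22 and lower for 7, with a median log2 difference of 0.01. Plac8, known from innate-like lymphocytes, stood at 1194 and 1399 CPM in B cells and at 87.3 and 100.1 in Cd3-positive cells (log2 4.09 ± 0.30). It had a UMI in 58.7% and 64.2% of B cells and in 8.67% and 6.86% of Cd3-positive cells. Zcwpw1 stood at 78.5 and 171 CPM against 18.1 and 18.2, and Zbtb32, a repressor reported in B-1 and memory cells, at 37.5 and 44.7 against 0, the latter not called by the DESeq2 Wald test (adjusted p = 0.641). Lgals1 and S100a10, which T cells also express, were called lower, at 420 and 358 CPM for Lgals1 against 1587 and 1929. S100a6, a calcium-binding protein, stood at 1382 and 1147 CPM against 1728 and 2114 and was not called (log2 -0.33, adjusted p = 0.172), but was called lower under the stricter cell filter (log2 -0.54, adjusted p = 0.0147).

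The B cells varied among themselves along S100a6. Cells of at least 1000 UMIs were thinned to 1000 and divided by whether an S100a6 UMI remained, a division chosen after the values had been seen and given with no test. It placed 37 of 117 B cells in mouse 1 (31.6%, 23.3 to 40.9) and 37 of 93 in mouse 2 (39.8%, 29.8 to 50.5) on the S100a6 side. In Cd3-positive cells at that depth, 47.9% and 69.3% held an S100a6 UMI. The S100a6 side had more UMIs before thinning, with medians of 3571 and 3327 against 1608.5 and 1556. The part of cell size or RNA content in the division was not tested.

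Levels on the 2 sides were then taken from all UMIs of these cells, with 20 CPM added before a fold was formed. Of 2648 genes with at least 20 UMIs, 19 (0.718%) were at least 2-fold higher on the S100a6 side in both mice and 50 (1.89%) at least 2-fold lower. Ccnd2, which encodes the cyclin D2 that B-1 cells are known to express, stood at 724 and 573 CPM on the S100a6 side and at 131 and 37.6 on the other. Zcwpw1 had 168 and 268 CPM against 0 and 47.0, and Lgals1 had 753 and 551 against 131 and 113. Pim1, a survival kinase, had 840 and 943 against 295 and 198. Plac8 had 1688 and 1945 against 760 and 706. The sizes depended on the random thinning: with a second draw Ccnd2 stood at 681 and 511 CPM against 133 and 201, and Plac8 at 1587 and 1899 against 799 and 1003. Under the first draw, 24.7% of all 2648 genes were higher on the S100a6 side in both mice. These 5 genes were chosen after the values had been seen, so their levels are a description only.

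In the other direction stood Satb1, a chromatin organiser, at 58.5 and 102 CPM on the S100a6 side against 413 and 395. Bach2, a repressor of plasma cell differentiation, had 14.6 and 14.5 against 111 and 141. Fcer2a had 36.5 and 21.8 against 144 and 122, and Vpreb3, a surrogate light chain relative, 21.9 and 0 against 111 and 75.3. Mef2c had 307 and 348 against 937 and 884, and Ccr7 124 and 94.3 against 216 and 320. H2-Ab1, the beta chain of I-A, had 2032 and 1117 against 3663 and 2286. Ebf1 differed in the same direction, at 804 and 784 against 1514 and 1618.

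Of the 12 genes of the B-1 list that reached 20 UMIs, other than S100a6, 10 were higher on the S100a6 side in both mice and 2 lower, beside 24.7% and 36.7% of all 2648 genes. S100a6 is itself on that list, and the division was chosen after the values had been seen. The count is thus a description and not separate evidence. Of the 12, 5 were at least 2-fold higher in both mice, and 3 with a second random thinning. Of 6 follicular and marginal zone genes, 5 were lower in both mice and 1 higher, and of 11 MHC class II genes, 9 were lower. When only cells of 1000 to 3000 UMIs were divided, 13.4% and 25.0% fell on the S100a6 side. That side still had more UMIs, with medians of 2163 and 2210 against 1464 and 1516. Of 1375 genes with enough UMIs there, 294 were higher in both mice and 470 lower. Of 7 B-1 genes, 4 were higher in both mice and 1 lower. Of 4 follicular and marginal zone genes, 1 was higher and 2 lower, and of 11 MHC class II genes, 8 were lower and none higher. A UMI of Fcer2a, Cr2 or Vpreb3 was found in 5 of 37 and 5 of 37 cells on the S100a6 side and in 35 of 80 and 20 of 56 on the other.

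**Figure D4:**
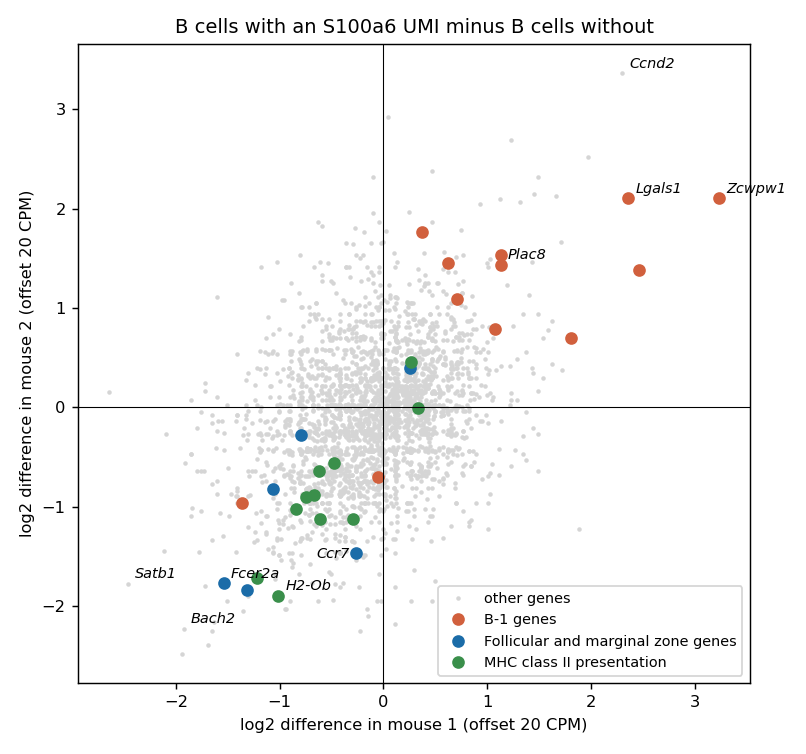
Log2 difference between B cells with and without an S100a6 UMI after thinning, in mouse 1 (horizontal axis) and mouse 2 (vertical axis), 1 point per gene with at least 20 UMIs, after adding 20 CPM. Ccnd2, Zcwpw1 and Lgals1 lie at the upper right, and Satb1, Bach2 and Fcer2a at the lower left with most MHC class II genes.

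Genes of other B cell stages were read only in cells chosen by Cd79a, Cd79b, Ms4a1 and Ly6d, so a stage low in these genes would be missed. Among 5 tested genes of the germinal centre list none was called higher than in Cd3-positive cells and 2, Basp1 and Mki67, were called lower, both calls being lost under the DESeq2 Wald test and that of Basp1 also under the stricter cell filter (adjusted p up to 0.0554 for Basp1 and 0.0708 for Mki67). Bcl6, a factor of the germinal centre reaction, had 0 and 4.07 CPM. Of 12 cell cycle genes, 5 had no UMI in B cells, Mki67 among them. In 117 and 93 cells thinned to 1000 UMIs that allows a share of up to 2.56% and 3.23% with an Mki67 UMI, which does not limit the share of cells that express it. Of 12 progenitor genes, 10 had no UMI, including Rag1, Rag2, Dntt and Il7r. Of 12 plasma cell genes tested, 4 were called higher (Mzb1, Irf4, Txndc5 and Jchain) and none lower, beside 6.69% and 8.2% of all genes. The call of Txndc5 was lost under 3 alternatives (adjusted p up to 0.0812). Jchain, which joins IgM and IgA polymers, had 3.41 and 52.9 CPM, and 12 of its 14 UMIs came from 1 cell of mouse 2. Its call was lost under the DESeq2 Wald test and without the replicate block (adjusted p up to 0.753). None of 12 immunoglobulin constant region symbols was in the gene table used here, so antibody class and light chain type were not analysed here.

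Toll-like receptor partners were called higher for 4 of 8 tested genes and none lower. Ly86 and Cd180, which encode the MD-1 and RP105 complex of B cells, stood at 252 and 118 and at 30.7 and 20.3 CPM, against 3.01 and 3.03 and against 0. Unc93b1, which carries nucleic-acid receptors to the endosome, had 215 and 167 against 9.03 and 15.2, and Ly96 27.3 and 8.13 against 3.01 and 3.03, a call lost under 3 alternatives (adjusted p up to 0.159). Of 13 cytokine and receptor genes, Ebi3 was called higher and Il6, Csf2, Il4ra and Ifngr1 lower. The call of Il6 was lost under 3 alternatives (adjusted p up to 0.253) and that of Ebi3 under the DESeq2 Wald test (0.0565). Ifngr1, a chain of the interferon gamma receptor, stood at 92.1 and 24.4 CPM in B cells and at 870 and 898 in Cd3-positive cells. Il10 had 13.6 and 0 CPM and was not called.

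Immediate early and heat shock genes, which tissue dissociation is known to induce, were called lower than in Cd3-positive cells for 8 of 21 and higher for 2, Cd83 and Myc. Junb stood at 1491 and 1195 CPM against 4291 and 3764, and Fos at 92.1 and 56.9 against 286 and 282. Fos stood at 1491 and 1676 CPM in the other barcodes (log2 -4.16 ± 0.25 for B cells, edgeR adjusted p = 4.7e-58). Of 8 ribosomal protein genes, 7 were called higher in B cells, with a median log2 difference of 0.74, and such genes have many near-identical copies.

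Against all other barcodes, which differ from B cells in cell type makeup and depth, 1260 of 10867 genes were called higher in B cells (11.6%) and 3041 lower (28.0%), 39.6% in all. With the 5 other populations weighted equally, 2162 genes were called, 1130 higher and 1032 lower, and the DESeq2 Wald test called 377 higher and 863 lower. The median log2 difference over all genes was -0.41, and all 15 other B lineage markers were called higher with a median of 6.60. Plac8 stood at 78.4 and 116 CPM in the other barcodes, and Pou2af1 at 0.627 and 0.949. Ebf1 was at 571 and 567 CPM there (log2 1.27 ± 0.17 for B cells, edgeR adjusted p = 3.19e-13), with a mean of 817 in Dcn-positive and 646 in Cdh5- or Cldn5-positive cells. MHC class II genes were called higher for 12 of 13 and homing genes for 10 of 19, with 3 lower. The leading genes on the lower side, Col1a2, Col1a1 and Col4a1, had no UMI in B cells.

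Some genes differed in opposite directions from the 2 comparison groups. Ikzf3, lower than in Cd3-positive cells, was called higher than in the other barcodes, at 15.7 and 15.6 CPM there (log2 1.79 ± 0.40), but this call too was lost under the DESeq2 Wald test (adjusted p = 0.157). Id3, an inhibitor of E proteins, was at 54.6 and 69.1 CPM in B cells, above the 21.1 and 18.2 of Cd3-positive cells and below the 760 and 799 of the other barcodes. Cd81, a tetraspanin gene, was likewise at 188 and 114 CPM, above 36.1 and 36.4 in Cd3-positive cells and below 679 and 561 elsewhere. S100a6 was called lower than in the other barcodes (log2 -0.91 ± 0.19), but when the 5 other populations were weighted equally the difference was 0.018.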

How the data were processed

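Whole mesentery of 2 mice was sequenced as 2 droplet libraries. The authors deposited 1 table of raw UMI counts for 27998 genes and 3204 barcodes. Cell Ranger and mm10 are named per the submitters' processing notes, and versions are not given in the sources used here. The number at the end of a barcode was matched to the mouse number in the labels. From the deposited counts, UMIs were summed per population and mouse (6 populations, 12 sums, 5137671 and 5563521 UMIs in all deposited barcodes). They were tested with edgeR 4.0.16 in R 4.3.3 (filterByExpr, TMM, quasi-likelihood F-test, Benjamini-Hochberg). The mouse entered as a block, because both populations of a pair come from the same animal. For the other barcodes the 2 groups were summed and fitted by themselves (4 sums). CPM are not TMM scaled, so fitted log2 differences can depart from CPM ratios. DESeq2 1.42.0 was an alternative, and Scrublet in scanpy 1.11.5 called doublets. In simulated counts with 4-fold changes, 93% of 200 changed genes were recovered against Cd3-positive cells and 57.5% of 193 against other barcodes.

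The members and lists were chosen with earlier results of these data known. Genes were named from, for each comparison, the 10 called genes that differed most on either side, if both mice moved alike and the mean log2 CPM reached 5. They were also taken from up to 6 members of each list by CPM in B cells, and members that a count of 5 or fewer rests on. Other genes named, and the S100a6 division with its genes, were chosen after the values had been seen. Planned comparisons by Ighd, light chain and immunoglobulin class are not analysed here. Samples are separate mice, and the mouse was a block. The p-values therefore measure how differences between populations varied between the 2 animals, with counting error. In the fit with Cd3-positive cells that spread was estimated over all 6 populations, and in both fits information was shared across genes. It is thus not the spread of B cells alone. A few listed genes that enter the counts are not reported here by name.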

Additional observations from a re-analysis of the deposited data

How the results depend on the processing

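The B cell share of barcodes was 5.73% without mouse 1 and 8.15% without mouse 2. The DESeq2 Wald test called 802 genes against Cd3-positive cells, 421 of them lower, and 1240 against other barcodes, 377 higher and 863 lower. The cause of its lower counts was not tested. Equal weights for the 5 other populations gave 2162 called genes, 1032 of them lower, and turned S100a6 to 0.018 and Txndc5 to 0.79 on the log2 scale, neither past the threshold. Without the replicate block, which pairs populations of the same mouse, 1075 genes were called against Cd3-positive cells and 4235 against other barcodes, and 5 and 2 named genes lost their call.

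Of the named genes called against Cd3-positive cells, 110 of 110 had the same sign in each mouse alone, and against other barcodes 78 of 78. Of 57 and 65 with UMIs in all 4 sums, 35 and 18 lay over 1.5-fold from the fitted value with 1 mouse left out. The 1-mouse value is a log2 CPM difference without TMM, so the gap mixes a change of measure with the loss of a mouse. The planned comparisons by Ighd, light chain and immunoglobulin class were not run. Under other thinning draws and depths, 9 or 10 of 12 B-1 genes were higher on the S100a6 side in both mice, and 3 to 5 at least 2-fold. With 216 B cells, a gene under about 10.2 CPM in mouse 1 or 12.2 in mouse 2 is below what a count of 0 allows.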

Other observations

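The most Jchain UMIs in any barcode past the filters, 85 of 1513, were in a barcode of mouse 2 that the B cell rule left out, with a marker sum of 2. It held 2 UMIs of Ly6d, 1 of Xbp1 and none of Cd79a or Mzb1. The B cell of mouse 2 with 12 Jchain UMIs held 11 of Cd79a, 4 of Mzb1 and 1 of Xbp1 among 2167.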
